A study of Mus musculus with 4 samples.

Results

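The collagen genes of the mouse were described here by the open chromatin called around them in newborn hearts. They were taken as every protein-coding gene of GRCm38 whose symbol reads Col, a number, the letter a and a number, which gave 44 of 21631 genes on the autosomes and the X chromosome. A stretch of open chromatin was assigned to a collagen gene when it lay within 20 kb of the gene body. By that rule 216 of 53140 merged regions, each the union of overlapping peaks from any of the 4 libraries, belonged to collagen genes. The rule used gene symbols and positions and no measured value. Earlier results of these data were known when the genes were chosen.

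The study asked what retinoid X receptors do for the chromatin of the heart around birth. ATAC-seq, in which the Tn5 transposase cuts and tags accessible DNA, was run on nuclei of whole C57BL/6 mouse hearts taken at postnatal day 0. Hearts of edKO newborns, in which RXR alpha and RXR beta were deleted in cardiomyocytes only, gave 2 libraries, and WT hearts gave 2 libraries, with 1 heart per library. The Cre line that drove the deletion, the litters and the sex of the newborns were not given in the labels.

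Collagens are secreted proteins of 3 chains wound into a triple helix, with glycine recurring along each chain. Fibrillar collagens form the tensile cables of the heart's interstitium and valves, whereas type IV collagens form the sheet-like network of the basement membrane around each cardiomyocyte and under the endothelium. In the heart the fibrillar chains come chiefly from fibroblasts and the type IV chains from endothelial, mural and other cells as well. The nuclei were those of all cells of the heart while the deletion was confined to cardiomyocytes, and in such bulk tissue fewer cells of a type and less open chromatin per cell cannot be told apart.

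Peaks had been called separately in each library, so a region is described by the libraries that called it and by the authors' −log10 p of its peak there. A region that a library did not call fell below the calling threshold in that library, which differs from being closed. The 4 lists held 27473 peaks in edKO 1, 27142 in edKO 2, 35279 in WT 1 and 38809 in WT 2. The median number of overlapping reads at a peak's summit was 19 in edKO 1 and 18 in edKO 2, against 23 in both WT hearts. The reads behind each single list are not given in the labels. The commonest background recovered at peaks was 1.51 and 1.92 reads in edKO hearts, against 1.81 and 1.80 in WT hearts. The median fold over background of the 10000 strongest peaks was 10.2 and 7.61 in edKO hearts, against 10.8 and 11.5 in WT hearts. Their part in the length of the lists was not tested. All 8 cardiomyocyte marker genes (Myh6, Myh7, Tnnt2, Tnni3, Actc1, Ttn, Nkx2-5 and Ryr2) had a region at their start in all 4 libraries, against 49.3% of all protein-coding genes.

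Of the 44 collagen genes, 42 had at least 1 region within 20 kb. Col9a1 and Col10a1, both known as cartilage collagens, had none in any library. Col2a1 and Col27a1, also known from cartilage, had 2 and 11. Col4a1 and Col4a2, the widely expressed chains of basement membrane collagen IV, had the most, with 22 regions each. The collagen windows held 30.8 regions per Mb, against 30.9 per Mb around all protein-coding genes. Of these collagen regions 49 of 216 (22.7%) were called in all 4 libraries, against 34.4% of the regions around any protein-coding gene, a difference that was not tested. Per length this was 6.99 such regions per Mb around collagens and 10.6 per Mb around all genes. Another 41.7% of collagen regions were called in 1 library only, against 36.8% around all genes. Of the 195 collagen regions more than 1 kb from a collagen start, 20.5% were called in all 4 libraries. The share was 21.5% for regions away from the starts of all genes. Of the 21 collagen regions at starts it was 42.9%, against 70.2% at the starts of all genes.

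**Figure D1:**
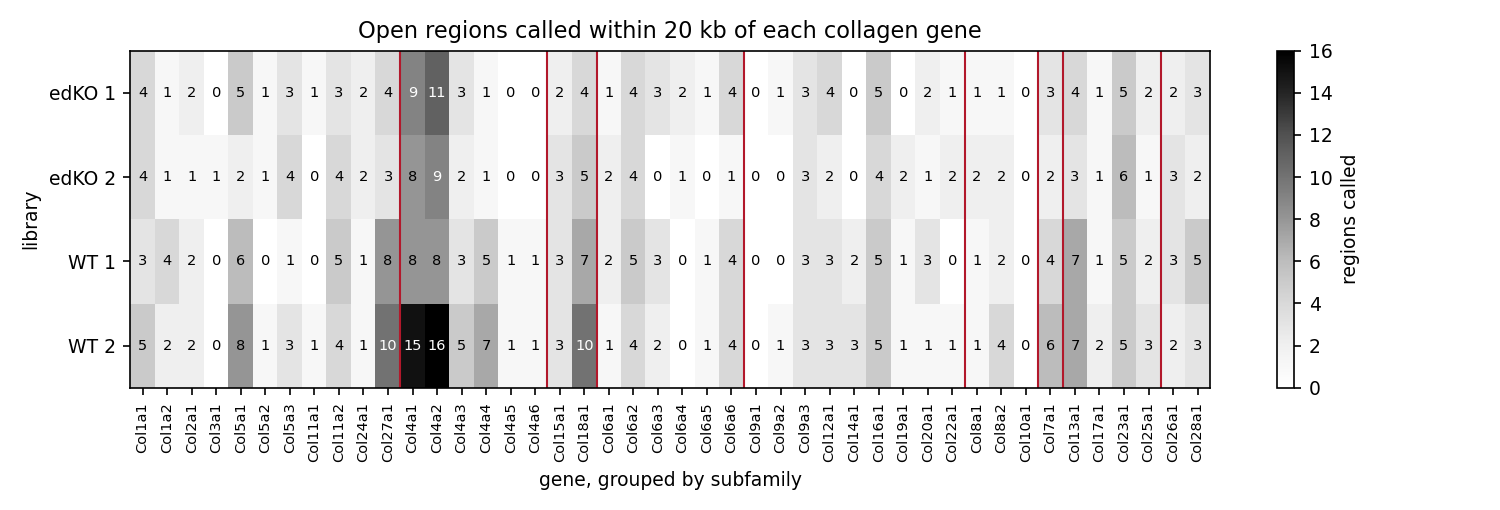
Number of open regions called within 20 kb of each collagen gene (columns, grouped by subfamily) in each library (rows, edKO above WT). A region near more than 1 collagen gene is counted for each. Col4a1 and Col4a2 hold 22 regions each over the 4 libraries, and Col9a1 and Col10a1 hold none.

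Few collagen genes had a start that was open in every heart. A start position was known for 35 collagen genes, and for the others both gene ends were used. Of these 35, 17 (48.6%) had a region within 1 kb of the start in at least 1 library and 9 (25.7%, exact 95% binomial interval 12.5 to 43.3%) had one in all 4, against 49.3% of all protein-coding genes. The 9 were Col1a2, Col4a1, Col4a2, Col5a1, Col6a2, Col16a1, Col18a1, Col23a1 and Col25a1. Intervals of this kind cover counting error only, and genes that neighbour each other share regions.

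Fewer collagen regions were called in the edKO than in the WT libraries, whose lists were also longer as a whole. The edKO libraries called 104 and 91 collagen regions, against 122 and 148 in the WT libraries, and the groups did not overlap. The mean was 97.50 ± 9.19 in edKO hearts and 135.0 ± 18.4 in WT hearts (SD, n = 2 each), a ratio of 0.722 that came with a two-sided exact permutation p of 0.333, the smallest that 2 libraries against 2 can give. Around all protein-coding genes the same ratio was 0.738. When every list was reduced to its 27142 strongest peaks, the direction turned: edKO hearts averaged 97.00 collagen regions and WT hearts 84.50, a ratio of 1.15, against 0.975 around all genes.

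Regions called in both hearts of a genotype and in neither heart of the other were counted next, as edKO-only and WT-only regions. Of 57 collagen regions called in both edKO hearts, 3 (5.26%) were edKO-only, against 1.24% of such regions around all protein-coding genes. The exact 95% binomial interval of the collagen share, 1.10 to 14.6%, included that value. Of 96 collagen regions called in both WT hearts, 27 (28.1%, exact 95% binomial interval 19.4 to 38.2%) were WT-only, against 17.7% around all genes. A further 20 of the 96 were called in 1 of the 2 edKO hearts. With lists of equal length the edKO-only count became 8 of 56, against 3.55% around all genes, and the WT-only count 8 of 63 (12.7%), against 9.59%. Leaving out a library enlarges both classes by construction. The edKO-only count was then 24 without edKO 1, 21 without edKO 2, 4 without WT 1 and 7 without WT 2, out of 91, 104, 56 and 57 regions, and the share around all genes was 20.6, 9.0, 2.64 and 3.33%. The WT-only count was 43, 31, 62 and 46 in the same order, out of 96, 96, 149 and 124, and the share around all genes was 32.9, 22.9, 31.8 and 28.3%.

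The WT-only share of collagens followed peak strength, here the percentile of −log10 p within each WT list averaged over both. Collagen regions called in both WT hearts had a median strength of 47.5, against 62.1 around all genes. Below the 25th percentile, 13 of 22 collagen regions (59.1%) were WT-only, against 56.8% around all genes, and between the 25th and the 50th it was 13 of 30 (43.3%) against 36.5%. Between the 50th and the 75th percentile 1 of 26 (3.85%) was WT-only, against 7.99%, and above the 75th it was 0 of 18 against 0.307%. The collagen share was above that of all genes in the weaker bands and below it in the stronger ones. These differences were not tested, and the 95% interval of the lowest band ran from 36.4 to 79.3%.

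**Figure D2:**
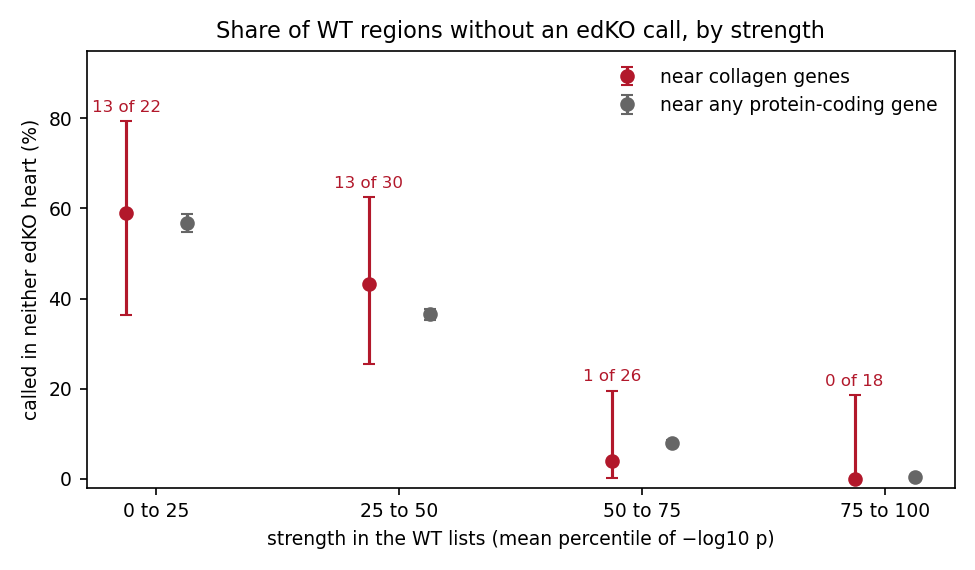
Percent of regions called in both WT hearts that no edKO heart called, by the strength of the region in the WT lists, for regions within 20 kb of collagen genes and of any protein-coding gene; bars on the collagen points are exact 95% binomial intervals. The collagen share was 59.1% in the weakest band and 0% in the strongest, and the share around all genes was 56.8% and 0.307% in these bands.

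Position relative to the gene start divided the collagen regions further. The 21 regions within 1 kb of a collagen start or end were called 13 and 14 times in edKO hearts and 13 and 14 times in WT hearts, a ratio of 1.0, against 0.923 at the starts of all genes. The 195 collagen regions away from starts were called 91 and 77 times in edKO hearts, against 109 and 134 times in WT hearts. Their ratio was 0.691, against 0.649 away from the starts of all genes. At starts 2 of 12 collagen regions called in both WT hearts (16.7%, interval 2.09 to 48.4%) were WT-only, against 4.37% for all genes. Away from starts it was 25 of 84 (29.8%, interval 20.3 to 40.7%), against 25.9% for all genes. Both intervals included the value of all genes.

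The type IV genes lie in head-to-head pairs, in which a pair of chains is transcribed outward from neighbouring starts. Col4a1 and Col4a2 encode the chains of the common basement membrane network, Col4a3 and Col4a4 encode chains of the specialised network of kidney, lung and ear together with Col4a5, and Col4a5 and Col4a6 share the X chromosome. The 3 pairs are shown by the promoters of Col4a2 (chr8:11312555-11312854, plus strand), Col4a4 (chr1:82586800-82587099, minus strand) and Col4a5 (chrX:141475169-141475468, plus strand), because their regions differed in the libraries that called them. Each is the RefSeq sequence of GRCm38.p6 from 250 bases before to 50 bases after the start, 5′ to 3′ in the direction of the gene. Capitals mark the CCAAT box, the GC box GGGCGG and the nuclear receptor element AGGTCA, each searched on both strands, so that a reverse complement is in capitals too.
Col4a2: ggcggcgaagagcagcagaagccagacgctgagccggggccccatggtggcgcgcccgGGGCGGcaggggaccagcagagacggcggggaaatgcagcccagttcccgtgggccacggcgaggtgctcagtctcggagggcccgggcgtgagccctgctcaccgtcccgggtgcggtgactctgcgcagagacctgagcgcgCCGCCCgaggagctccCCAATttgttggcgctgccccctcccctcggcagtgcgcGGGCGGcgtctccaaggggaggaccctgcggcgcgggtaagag
Col4a4: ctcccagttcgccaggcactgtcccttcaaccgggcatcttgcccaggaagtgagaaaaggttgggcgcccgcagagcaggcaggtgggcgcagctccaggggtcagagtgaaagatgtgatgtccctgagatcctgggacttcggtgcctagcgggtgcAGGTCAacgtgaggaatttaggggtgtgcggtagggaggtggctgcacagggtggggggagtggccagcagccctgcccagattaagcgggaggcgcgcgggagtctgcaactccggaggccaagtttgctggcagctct
Col4a5: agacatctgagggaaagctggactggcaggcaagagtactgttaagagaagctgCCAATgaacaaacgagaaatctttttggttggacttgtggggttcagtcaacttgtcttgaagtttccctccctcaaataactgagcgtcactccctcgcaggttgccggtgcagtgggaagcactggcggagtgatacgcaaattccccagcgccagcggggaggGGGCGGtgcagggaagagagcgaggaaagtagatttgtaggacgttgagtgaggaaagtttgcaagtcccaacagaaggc

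The Col4a2 promoter held 1 CCAAT box and 3 GC boxes, the Col4a4 promoter 1 AGGTCA, and the Col4a5 promoter 1 CCAAT box and 1 GC box, and no match overlapped another. Over 21045 promoters of the same length, 38.5% held CCAAT, 46.7% held GGGCGG and 14.6% held AGGTCA. Of 38 collagen promoters, 13 (34.2%) held CCAAT, 23 (60.5%) held GGGCGG and 8 (21.1%) held AGGTCA. The TATA box TATAAA was found in 5 of the 38 (13.2%), against 12.7% of all. The direct repeat of AGGTCA spaced by 1 base, a form that retinoid X receptor dimers are known to bind, was found in 0 of 38 collagen promoters and in 0.0475% of all. These matches describe letters in a window and not bound sites.

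Most regions called in every heart had a lower −log10 p in the edKO lists. Both edKO values of −log10 p lay below both WT values in 36 of the 49 such collagen regions (73.5%), against 74.9% around all protein-coding genes, and the reverse held in 0 and in 0.755%. By the percentile of −log10 p within each list it was 21 of 49 (42.9%), against 48.5% around all genes. The reverse then held in 2.04% and in 5.07%. For overlapping reads at the summit, both edKO values lay below both WT values in 38 of 49 (77.6%), against 84.8% around all genes. The reverse held in 0 and in 0.205%. The single regions below are to be read against these shares.

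The shared start of Col4a1 and Col4a2 was open in every heart. Its region, chr8:11312308-11313044, had a −log10 p of 18 in edKO 1 and 17.7 in edKO 2, against 23.5 in WT 1 and 32.7 in WT 2. The summit held 31 and 36 overlapping reads in edKO hearts, against 44 and 56 in WT hearts. Both edKO values lay below both WT values. This region contained the whole Col4a2 promoter printed above, and the gene bodies of Col4a1 and Col4a2 overlap there by 85 bp.

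Of the other type IV starts, that shared by Col4a3 and Col4a4 and that of Col4a5 were called in the WT hearts alone, and that of Col4a6 in no library. The Col4a3 and Col4a4 region, chr1:82586696-82587112, was called in neither edKO heart, against a −log10 p of 4.69 and 6.33 in the WT hearts, with 9 and 11 overlapping reads. It covered all 300 bases of the Col4a4 promoter, and the bodies of both genes overlap there by 114 bp. The Col4a5 region, chrX:141475227-141475502, was called in neither edKO heart, against a −log10 p of 10.9 and 9.02 in the WT hearts, with 16 and 14 overlapping reads. It covered 242 bases of the Col4a5 promoter, and Col4a6 begins 1274 bp away from the body of Col4a5. Both summits held fewer overlapping reads than the median summit of the WT hearts, which held 23. By the percentile of −log10 p averaged over the WT lists, the Col4a3 and Col4a4 region had 8.72 and the Col4a5 region 41.0. The median of collagen regions called in both WT hearts was 47.5. For the X-linked region the number of X chromosomes per heart is unknown because the sex was not labelled.

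**Figure D3:**
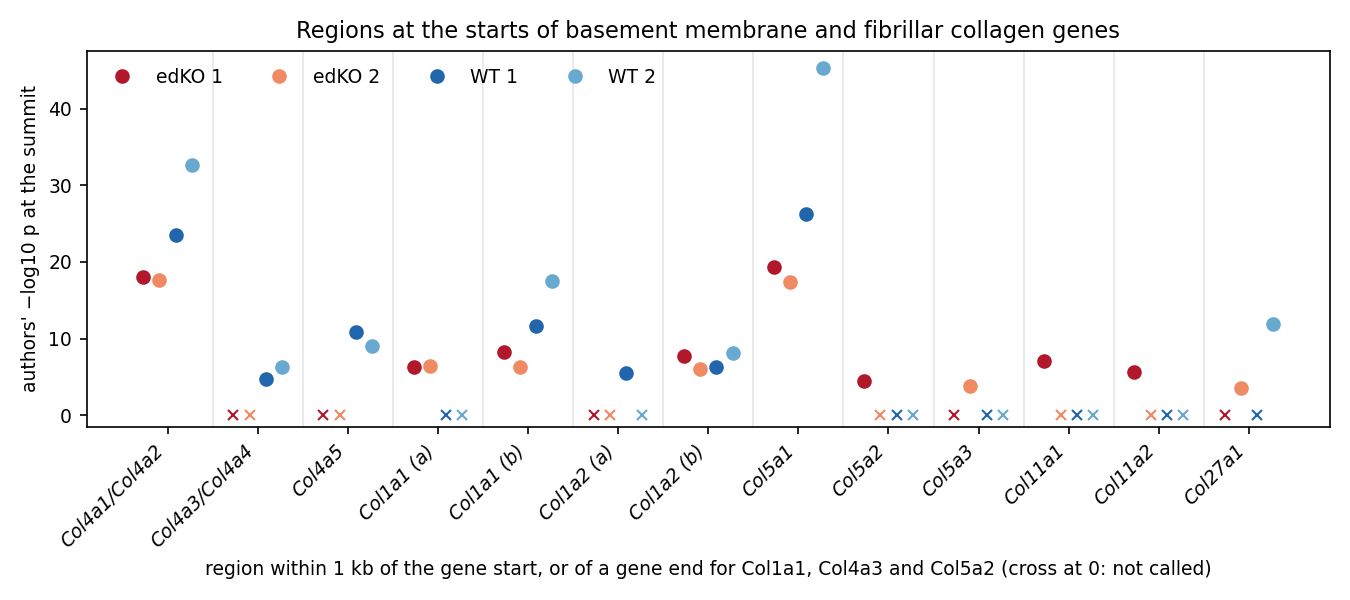
−log10 p of the authors' peak in each library (edKO left of WT) for the regions within 1 kb of type IV and fibrillar collagen starts, or of a gene end for Col1a1, Col4a3 and Col5a2, whose start was not known; a cross at 0 marks a library without a call, and (a) and (b) mark the lower and the higher coordinate where a gene has a pair of regions. The shared Col4a1 and Col4a2 region and the Col5a1 region were called in all 4 libraries, and the Col4a3 and Col4a4 region and the Col4a5 region in WT hearts only.

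Around the Col4a1 and Col4a2 pair lay 38 regions, of which edKO hearts called 17 and 14, against 14 and 26 in WT hearts. The groups overlapped, and 9 of the 19 regions called in a lone library came from WT 2. Of the 38, 6 were called in all 4 libraries and 4 were WT-only, out of 11 that both WT hearts called. The strongest shared one, chr8:11183469-11184029, lay 14394 bp outside the body of Col4a1 and had a −log10 p of 34.9 and 16.5 in edKO hearts, against 79.8 and 64.7 in WT hearts. Its summit held 49 and 34 overlapping reads in edKO hearts, against 107 and 93 in WT hearts. Both edKO values lay below both WT values there. The shared region chr8:11340298-11340679 inside Col4a2 had 8.37 and 4.19 in edKO hearts, against 16.5 and 13.0 in WT hearts.

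The 4 WT-only regions of the pair were spread over both genes. In Col4a1 they lay at chr8:11253612-11253866, with a −log10 p of 10.8 and 5.29 in the WT hearts, and at chr8:11262288-11262699, with 4.68 and 8.25. For Col4a2 they lay at chr8:11334527-11334860 inside the body, with 6.11 and 6.79, and at chr8:11463707-11464062, 14420 bp outside it, with 4.68 and 9.64. The reverse pattern occurred once: chr8:11279222-11279604 inside Col4a1 had a −log10 p of 6.91 in edKO 1 and 6.79 in edKO 2, against no call in either WT heart. Its summit held 15 and 17 overlapping reads in edKO hearts.

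**Figure D4:**
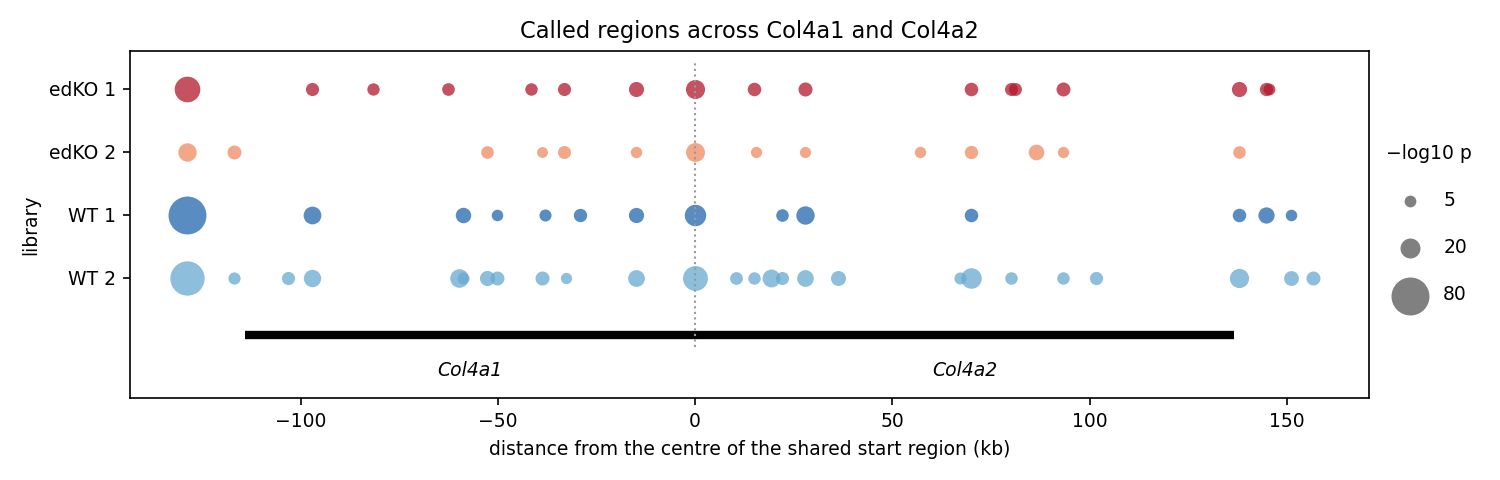
Open regions around the head-to-head Col4a1 and Col4a2 genes, by distance from the shared start (kb), with 1 row per library (edKO above WT) and point size for the authors' −log10 p. The region at 0 kb was called in all 4 libraries, and 9 regions appear in the WT 2 row alone.

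The 4 other type IV genes had 11 regions, called 3 and 3 times in edKO hearts, against 7 and 10 times in WT hearts. Of 6 that both WT hearts called, 3 were WT-only: both start regions above and chr1:82433408-82433672, 14747 bp outside Col4a4, with a −log10 p of 5.20 and 7.87 in the WT hearts. Near Col4a3, chr1:82724685-82725308 was open in every heart, with 28.9 and 20.2 in edKO hearts, against 38.7 and 43.2 in WT hearts. Over all 6 type IV genes, 7 of 17 regions called in both WT hearts (41.2%, interval 18.4 to 67.1%) and 1 of 10 called in both edKO hearts belonged to that genotype alone. Around all protein-coding genes these shares were 17.7% and 1.24%. Of the type IV regions called in both WT hearts, 5 of 6 in the weakest band of strength and 2 of 5 in the next were WT-only, and above the 50th percentile it was 0 of 4 and 0 of 2. For the fibrillar genes it was 3 of 5, 5 of 8, 0 of 7 and 0 of 5 from the weakest band to the strongest.

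The fibrillar genes had 52 regions, of which edKO hearts called 26 and 22, against 30 and 37 in WT hearts. WT-only regions made up 8 of 25 called in both WT hearts (32.0%, interval 14.9 to 53.5%), and edKO-only regions 1 of 15 called in both edKO hearts. The intervals of the type IV and the fibrillar share overlapped widely. The fibrillar interval included the 17.7% of all genes, and the type IV interval began just above it. The other 27 collagen genes together had 12 of 54 (22.2%). With lists of equal length the WT-only share was 10% for type IV and 11.8% for fibrillar genes, against 9.59% around all genes.

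**Figure D5:**
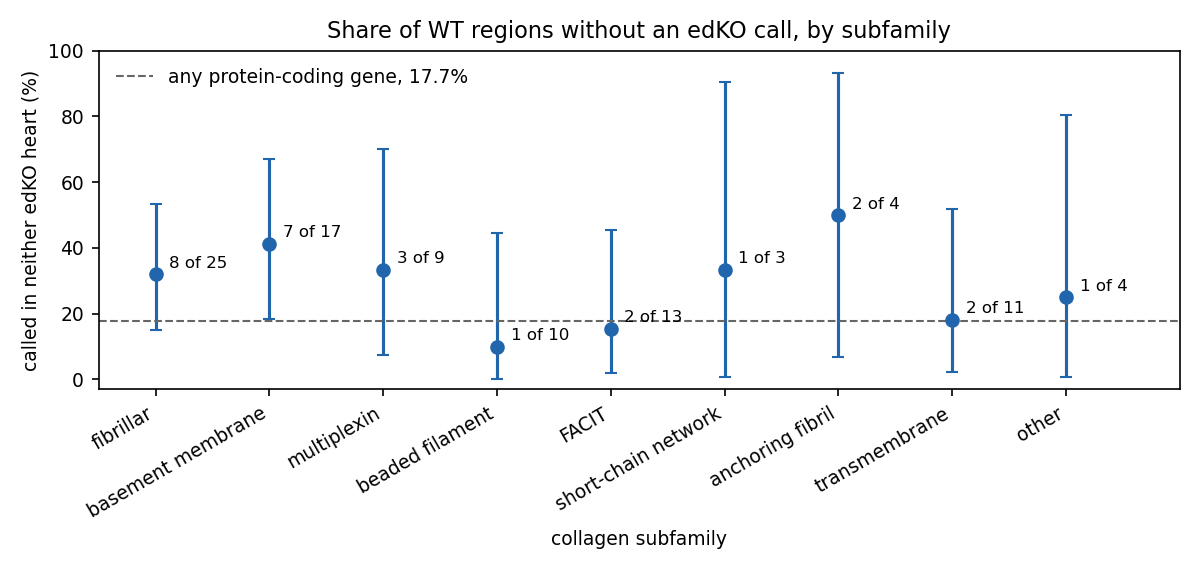
Percent of the regions called in both WT hearts that no edKO heart called, for each collagen subfamily (points), with exact 95% binomial intervals. The interval of the fibrillar genes (32.0%) includes the 17.7% of all genes, drawn as a dashed line, and that of the basement membrane genes (41.2%), which are the type IV genes, begins at 18.4%.

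The 2 fibrillar starts that were open in every heart with a known promoter are shown next, Col1a2 (chr6:4505368-4505667, plus strand) for the second chain of type I collagen, the main fibre of the heart, and Col5a1 (chr2:27886175-27886474, plus strand) for the type V chain that seeds fibrils. The capitals mark the same motifs.
Col1a2: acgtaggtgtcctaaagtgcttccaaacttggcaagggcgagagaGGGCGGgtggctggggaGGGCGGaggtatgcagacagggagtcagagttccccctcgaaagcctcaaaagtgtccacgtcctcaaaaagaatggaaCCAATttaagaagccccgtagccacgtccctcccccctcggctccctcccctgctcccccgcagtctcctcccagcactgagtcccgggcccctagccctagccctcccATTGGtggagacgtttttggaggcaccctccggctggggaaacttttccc
Col5a1: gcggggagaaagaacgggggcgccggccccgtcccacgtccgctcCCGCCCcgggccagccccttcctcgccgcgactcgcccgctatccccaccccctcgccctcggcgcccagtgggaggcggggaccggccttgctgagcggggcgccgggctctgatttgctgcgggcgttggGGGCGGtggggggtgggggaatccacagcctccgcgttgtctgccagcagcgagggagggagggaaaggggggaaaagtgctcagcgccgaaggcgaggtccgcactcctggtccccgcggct

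Col1a2 held 2 CCAAT boxes and 2 GC boxes and Col5a1 2 GC boxes, with no AGGTCA in either window. The Col1a2 start region, chr6:4505430-4505814, had a −log10 p of 7.78 in edKO 1 and 6.04 in edKO 2, against 6.31 in WT 1 and 8.09 in WT 2, and the groups overlapped. Its summit held 12 and 11 overlapping reads in edKO hearts, against 11 and 13 in WT hearts. The Col5a1 start region, chr2:27885903-27886592, had 19.4 and 17.4 in edKO hearts, against 26.3 and 45.3 in WT hearts. Its summit held 30 and 35 overlapping reads in edKO hearts, against 45 and 67 in WT hearts, so that the groups did not overlap.

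Col1a1, which encodes the other chain of type I collagen, had a pair of regions close to a gene end, and its start was not listed. The first, chr11:94936174-94936421, was edKO-only, with a −log10 p of 6.27 in edKO 1 and 6.38 in edKO 2, against no call in either WT heart. The second, chr11:94936910-94937509, was called in every heart, with 8.28 and 6.24 in edKO hearts, against 11.7 and 17.5 in WT hearts. The strongest shared region of the fibrillar genes by the percentile of −log10 p averaged over all 4 lists, the measure used for each subfamily, was chr11:94928725-94929292. It lay 6932 bp outside Col1a1 and had 56.2 and 34.8 in edKO hearts, against 37.6 and 74.4 in WT hearts, with overlap between the groups.

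The starts of the remaining fibrillar genes were seldom called. Col2a1, the cartilage collagen, Col3a1, the partner of type I in the heart, and Col24a1 had no region within 1 kb of a start or end. Col5a2, Col11a1 and Col11a2 each had 1 region called in edKO 1 alone, with a −log10 p of 4.53, 7.13 and 5.64. The start of Col5a3 was called in edKO 2 alone with 3.81, and that of Col27a1 had 3.58 in edKO 2 and 11.9 in WT 2. No fibrillar start was WT-only.

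Away from the starts, Col27a1 had 4 of the 8 fibrillar WT-only regions, all inside its body. The strongest of them had a −log10 p of 9.09 and 12.8 in the WT hearts at chr4:63230012-63230420. Those at chr4:63268823-63269129, with 6.67 and 15.1, and at chr4:63307435-63307674, with 13.9 and 6.73, varied more between the WT hearts. Col27a1 encodes a fibrillar chain known from cartilage, and its body also held regions called in every heart. One of them, chr4:63310399-63310830, had 9.40 and 8.21 in edKO hearts, against 23.9 and 28.3 in WT hearts.

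A WT-only region assigned to Col11a2 lay inside Rxrb, a gene deleted in edKO cardiomyocytes. It was chr17:34034095-34034339, 4580 bp outside Col11a2, and had a −log10 p of 10.5 and 8.58 in the WT hearts, with 46 and 42 overlapping reads, against no call in either edKO heart. Its background was 15.0 reads in both WT hearts, so that its fold over background was 2.94 and 2.69. Another region over Rxrb and its neighbour Slc39a7, chr17:34031367-34032464, was called in every heart. That region had a −log10 p of 40.7 and 20.6 in edKO hearts, against 61.1 and 49.4 in WT hearts. The place of these regions relative to the deleted stretch of Rxrb was not analysed here. The other fibrillar WT-only regions were 2 inside Col5a1 and 1 lying 15335 bp from Col1a2, with 8.77 in WT 1 and 7.20 in WT 2.

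Among the other subfamilies, the beaded-filament collagens of type VI surround muscle fibres and cells of the interstitium. Their 23 regions were called 14 and 8 times in edKO hearts, against 14 and 11 times in WT hearts, and 1 of 10 called in both WT hearts was WT-only. That one, chr10:76590220-76590570 in the neighbouring gene Ftcd, had a −log10 p of 7.30 and 10.9 in the WT hearts. The Col6a2 start, chr10:76623032-76623784, was the strongest shared one, with 38.5 and 34.6 in edKO hearts, against 39.0 and 54.8 in WT hearts. Its summit held 48 and 50 overlapping reads in edKO hearts, against 52 and 69 in WT hearts.

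The multiplexins Col15a1 and Col18a1, basement membrane proteins whose ends are cut off as angiogenesis inhibitors, had 15 regions, called 6 and 8 times in edKO hearts, against 10 and 13 times in WT hearts. All 3 of their WT-only regions lay inside Col18a1. One listed start of Col18a1, with the region chr10:77166338-77166667, was open in every heart. Its −log10 p was 7.42 and 11.9 in edKO hearts, against 12.3 and 13.7 in WT hearts. The promoter at the other listed start, chr10:77113656-77113955, overlapped no region in any library. The strongest shared region near Col18a1, chr10:77032923-77033580, lay in the neighbour Slc19a1. It had 23.9 and 11 in edKO hearts, against 35.0 and 49.1 in WT hearts.

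The FACIT genes, whose products decorate the surface of fibrils, had 26 regions, called 16 and 14 times in edKO hearts, against 17 and 18 times in WT hearts. Their WT-only regions were 2 of 13 (15.4%), against 17.7% around all protein-coding genes. Both lay in or near Col14a1. The strongest shared region lay at chr4:130107120-130107947 in Pef1 next to Col16a1, with a −log10 p of 20.8 and 17.7 in edKO hearts, against 45.4 and 56.0 in WT hearts. The transmembrane collagens had 27 regions, called 12 and 11 times in edKO hearts, against 15 and 17 times in WT hearts. Their WT-only regions were 2 of 11 (18.2%), against the same 17.7%. The strongest WT-only region of all collagens was one of these, chr19:47658903-47659211 inside Col17a1, a hemidesmosome collagen of epithelia, with 12.4 in WT 1 and 17.5 in WT 2 and with 24 and 30 overlapping reads. It was the only WT-only collagen region above the 50th percentile of strength.

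The small subfamilies held few regions. Col7a1, the anchoring-fibril collagen, had 6 regions, called 3 and 2 times in edKO hearts, against 4 and 6 times in WT hearts. Its 2 WT-only regions were chr9:108970614-108970989 in its body, with a −log10 p of 12.8 and 6.81 in the WT hearts, and chr9:108949328-108949657 in Uqcrc1, with 10.4 and 8.38. The short-chain genes had 7 regions, called 2 and 4 times in edKO hearts, against 3 and 5 times in WT hearts. Col26a1 had a WT-only region, chr5:136864002-136864433, with 10.1 in WT 1 and 13.0 in WT 2, and a few kb away an edKO-only region, chr5:136870286-136870564, with 4.53 in edKO 1 and 4.78 in edKO 2. Col1a1, Col4a1 and Col26a1 were the only collagen genes with an edKO-only region in the lists as deposited.

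Many of the strongest regions assigned to collagens lay over a neighbour. Of the 216, 32 overlapped the body of another gene and no collagen body, and 17 of these were called in all 4 libraries. The other 184 regions included 32 (17.4%) called in all 4. The strongest shared regions near Col23a1, Col28a1, Col7a1 and Col8a2 lay in Phykpl, Mios, Pfkfb4 and Adprhl2. The one in Mios, chr6:8208959-8209796, had a −log10 p of 62.0 and 48.6 in edKO hearts, against 87.8 and 73.0 in WT hearts. That in Phykpl, chr11:51584175-51585144, had 55.4 and 42.9 in edKO hearts, against 58.7 and 78.4 in WT hearts. In all 4 of these regions, the others being given next, both edKO values lay below both WT values, as in 74.9% of the regions around all genes that every heart called. For Pfkfb4, chr9:108991470-108992121, the values were 53.6 and 35.2 in edKO hearts, against 68.6 and 81.6 in WT hearts. For Adprhl2, chr4:126321153-126321939, they were 22.4 and 11.6 in edKO hearts, against 26.5 and 22.7 in WT hearts. Of the 27 WT-only regions, 19 overlapped a collagen body, 5 the body of another gene only and 3 neither.

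The genes that make, cut, sense and degrade collagen were counted in the same way. The folding list, which includes Serpinh1, the collagen chaperone, and the prolyl hydroxylases, had 99 regions near 18 genes. Of 41 called in both edKO hearts 1, at P4ha2, was edKO-only, and 15 of 67 (22.4%) were WT-only. The cleavage and cross-linking list, which includes Lox and Bmp1, had 1 of 27 edKO-only, at Loxl3, and 6 of 38 WT-only. The degradation list had 1 of 11 edKO-only, at Mrc2, a collagen uptake receptor, and 2 of 16 WT-only. The receptors had 3 of 25 WT-only and the basement membrane partners of type IV collagen, such as laminins and nidogens, 10 of 55 (18.2%), with no edKO-only region in either. Over all 63 genes, edKO hearts called 192 and 183 of 330 regions, against 228 and 265 in WT hearts, a ratio of 0.761, and 36 of 201 (17.9%) were WT-only. Around all protein-coding genes the ratio was 0.738 and the WT-only share 17.7%.

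Of the starts of these genes 23 of 43 (53.5%) were open in all 4 libraries, against 9 of 35 collagen starts and 49.3% of all genes, a difference that was not tested. Serpinh1 had 4 of its 5 regions called in all 4 libraries, and Lox had 1 region, called in every heart.

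Markers of the cells that make collagen, and of other cells of the heart, were counted beside the ratio of 0.738 around all protein-coding genes. Regions near the 8 fibroblast markers were called 9 and 6 times in edKO hearts, against 10 and 14 times in WT hearts, a ratio of 0.625, and Dcn and Lum had none. None of the 4 fibroblast starts with a known position was called in all 4 libraries, against 49.3% of all protein-coding genes. Such starts numbered 3 of 6 for endothelial, 1 of 4 for smooth muscle and pericyte, 1 of 3 for epicardial and 1 of 3 for erythroid markers. They numbered 0 of 2 for immune, 0 of 3 for neuronal and 0 of 2 for chondrocyte markers. Regions near endothelial markers were called 24 and 18 times in edKO hearts, against 26 and 34 times in WT hearts, a ratio of 0.700. For smooth muscle and pericyte markers it was 12 and 11, against 21 and 25, a ratio of 0.50. Cardiomyocyte markers had 52 and 58 in edKO hearts, against 58 and 68 in WT hearts, a ratio of 0.873. Chondrocyte markers had 8 and 7 in edKO hearts, against 8 and 9 in WT hearts. In edKO against WT hearts, epicardial markers had 7 and 8 against 7 and 13, immune markers 8 and 8 against 11 and 13, erythroid markers 9 and 9 against 12 and 11, and neuronal markers 5 and 6 against 8 and 8. The part of these cells in the collagen counts was not tested.

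At the border of the 20 kb rule, the last region inside lay 19884 bp from Col4a2 and was called in WT 2 alone with a −log10 p of 8.31. The first outside lay 20318 bp from Col1a1 and had no call in edKO 1 and 7.55 in edKO 2, against 11.6 in WT 1 and 16.8 in WT 2.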

How the data were processed

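ATAC-seq peak lists of 4 P0 hearts, edKO (n = 2) and WT (n = 2), were used, 1 heart per library. Per the submitters' processing notes the authors' tools included MACS2, Bowtie2, SAMtools, cutadapt, CASAVA and bcl2fastq and their builds mm10 and GRCm38; for versions, the Tn5 shift and duplicate or mitochondrial reads, the answer is not given in the sources used here. The deposited columns hold a score, the fold of each peak's summit over its background, a −log10 p, a −log10 q and the summit position, all made by the authors for each library alone. The lists as deposited give peaks and no counts, so the total reads of a library are unknown. Strength is the percentile of −log10 p within a list; −log10 p and summit reads set side by side between libraries also carry each library's depth, and are given beside the share of all regions that differ likewise.

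Overlapping peaks (1 bp or more) on chromosomes 1 to 19 and X were joined into 53140 regions. A region belonged to a gene when it lay within 20 kb of the body, and to a start within 1 kb. The number of reads at a summit was recovered from the fold and −log10 p, and 99.982 to 99.996% of a library's peaks gave a whole number (tolerance 0.001 in −log10 p). Libraries were compared with a two-sided exact permutation test; shares have exact Clopper-Pearson 95% intervals. The scripts were tested on simulated data. Analyses used Python 3.11.15, pandas 2.3.3, numpy 2.4.6, scipy 1.17.1 and matplotlib 3.10.9.

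Gene positions, strands and promoters came from RefSeq (GRCm38.p6); 9 collagen genes had no promoter entry there, and protein sequences were not used here. Positions in exons or introns were not analysed. The genes and lists were chosen with earlier results of these data known. Named with values were the regions at starts of type IV and fibrillar genes, each edKO-only region, the 10 strongest WT-only regions, the strongest shared region of each subfamily, the genes with most regions and those with none; others named above were chosen after their values were seen. Alternatives were equal list lengths, stricter thresholds, other windows, other merging, the replicate block and leaving out each library.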

Additional observations from a re-analysis of the deposited data

How the results depend on the processing

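Of 79 alternative values 58 kept to the main value, which means the same side of 1 for the ratio, within 1.5 times for a count and within the main value's 95% interval for a share. With lists of equal length the ratio of collagen regions, edKO over WT, reversed to 1.15, edKO-only regions numbered 8 and WT-only regions 8, or 12.7% of those called in both WT hearts, 10% for type IV and 11.8% for fibrillar genes. A minimum −log10 p of 10 in all lists left 1 edKO-only and 12 WT-only regions and a ratio of 0.50, against 0.637 around all genes; the WT-only share was 15.4% for fibrillar and 42.9% for type IV genes, against 19.6% around all. Requiring it only in both libraries of the genotype that called the region left 0 edKO-only and 2 WT-only regions. The WT-only share was then 4.35% of the 46 regions that reached it in both WT hearts, against 4.50% around all genes. It was 0% for type IV and 0% for fibrillar genes. The cause was not tested. Leaving out 1 library at a time gave ratios of 0.654 to 0.790, 4 to 24 edKO-only regions, 31 to 62 WT-only regions and a WT-only share of 32.3 to 44.8%, with 47.1 to 52.9% for type IV and 36.0 to 48.0% for fibrillar genes; fewer libraries make both classes larger by construction.

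The replicate numbers gave pairs only in name: deviations of same-numbered libraries from their group means correlated at -0.0208 over 16568 regions called in all 4. With the replicate block the ratio was 0.734 and the two-sided exact sign-flip p 0.50, the smallest that 2 pairs allow. The total reads of a library are unknown, so a region without a call near the threshold cannot be told from one that is closed.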
